A study of Populus ussuriensis with 18 samples.

Results

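CAld5H1, CAld5H2 and COMT2 are the poplar genes whose enzymes make the syringyl units of lignin. Their transcripts were measured in the basal part of cut stems as loci Potri.005G117500, Potri.007G016400 and Potri.012G006400, 3 of the 36385 loci in each table. The members were picked by these locus numbers of Populus trichocarpa and not by a cutoff on measured values, though with earlier results of these data known. The RNA came from Populus ussuriensis plants of 2 weeks, grown in vitro at 25 °C on medium with 20 g/L sucrose under 16 h of light and 8 h of dark. Stems were cut, and the lowest 0.5 cm of the cuttings was taken at 0, 0.5, 1, 2, 6, 12, 24, 48 and 96 h. No other agent or genotype is named, and every group is the same kind of plant at another time. Each of the 9 time points has 2 libraries, 18 in all, and the labels do not say whether these came from separate plants. The p-values therefore measure only the spread between libraries, which may be technical.

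Lignin is the phenolic polymer that stiffens the secondary walls of xylem vessels and fibres. It is built from guaiacyl and syringyl units, which differ in the number of methoxyl groups on the ring. Coniferaldehyde 5-hydroxylase, a cytochrome P450 also known as ferulate 5-hydroxylase, adds a hydroxyl group to the guaiacyl ring, and poplar has the paralogs CAld5H1 and CAld5H2. Caffeate O-methyltransferase, here COMT2, then methylates that hydroxyl group and completes the syringyl ring. Angiosperm wood is rich in syringyl units. Cuttings form adventitious roots, which are roots that arise on tissue other than a root, at the same stem end.

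Levels are in FPKM, which the authors deposited per transcript: read numbers divided by the length of the transcript and by the depth of the library. All 3 members passed the filter of at least 1 FPKM in at least 2 libraries. The read totals recovered from the 16 tables after cutting were between 28460172 and 30651830, and at 0 h no total could be recovered with confidence. After cutting, CAld5H1 rested on 2548 to 8365 reads per library, CAld5H2 on 351 to 5335 and COMT2 on 8906 to 23851. How the authors placed reads that match both CAld5H paralogs is not given in the sources used here, so the split between them is uncertain to that extent. The tissue is bulk, so fewer cells of a type and less RNA per cell cannot be told apart.

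CAld5H1 was highest at 0 h and 0.5 h and dropped early. The 0 h libraries held 133 and 121 FPKM, the 0.5 h libraries 130.1 and 125, the 1 h libraries 76.2 and 76.2, the 2 h libraries 64.1 and 78.3, and the 6 h libraries 52.5 and 55.7. The 12 h libraries then held 66.4 and 68.0 FPKM, the 24 h libraries 76.1 and 87.1, the 48 h libraries 56.7 and 58.1, and the 96 h libraries 46.1 and 39.7. Both libraries of 0 h and of 0.5 h lay above all 14 others. In order of the means, 0.5 h and 0 h overlapped, and so did 24 h with 1 h, 1 h with 2 h, and 2 h with 12 h. The means at 48, 6 and 96 h followed without overlap. The mean at 96 h, 42.9 ± 4.50 FPKM (SD, n = 2), was 2.97-fold below that at 0.5 h, 127 ± 3.76 FPKM.

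CAld5H2 stayed high through 2 h and then dropped, most between 2 and 6 h and between 24 and 48 h, and fell further by 96 h. The 0 h libraries held 64.2 and 68.7 FPKM, the 0.5 h libraries 85.1 and 86.4, the 1 h libraries 77.7 and 85.6, and the 2 h libraries 76.4 and 95.4. Of the later ones, the 6 h libraries held 30.2 and 28.3 FPKM, the 12 h libraries 35.1 and 26.0, the 24 h libraries 37.6 and 46.1, the 48 h libraries 13.8 and 14.9, and the 96 h libraries 8.71 and 6.14. The 6 libraries from 0.5 to 2 h lay above the 0 h libraries, and these above all 10 libraries from 6 h on. In order of the means, 2 h, 0.5 h and 1 h overlapped, and so did 12 h with 6 h, while 0 h, 24 h, 48 h and 96 h overlapped no neighbour. The mean at 96 h, 7.43 ± 1.82 FPKM (SD, n = 2), was 11.6-fold below that at 2 h, 85.9 ± 13.4 FPKM. At 2 h the locus stood at the percentiles 96.3 and 97.2 of all loci in FPKM, and at 96 h at 65.2 and 57.6.

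COMT2 dipped, recovered to its highest level at 24 h and fell again. The 0 h libraries held 466 and 412 FPKM, the 0.5 h libraries 417 and 363, the 1 h libraries 279.6 and 266, the 2 h libraries 281 and 321, and the 6 h libraries 375 and 375. The 12 h libraries followed with 418 and 366 FPKM, the 24 h libraries with 496 and 473, the 48 h libraries with 338 and 328, and the 96 h libraries with 202 and 179. Both 24 h libraries lay above all others, and both 96 h libraries below all others. In order of the means, 0 h, 12 h, 0.5 h and 6 h overlapped in a row, and 48, 2, 1 and 96 h followed without overlap. The mean at 96 h, 190.4 ± 15.9 FPKM (SD, n = 2), was 2.55-fold below that at 24 h, 485 ± 16.1 FPKM. COMT2 was the most abundant of the members in every library and never left the top of the table, between the percentiles 98.9 and 99.8 of all loci.

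**Figure D1:**
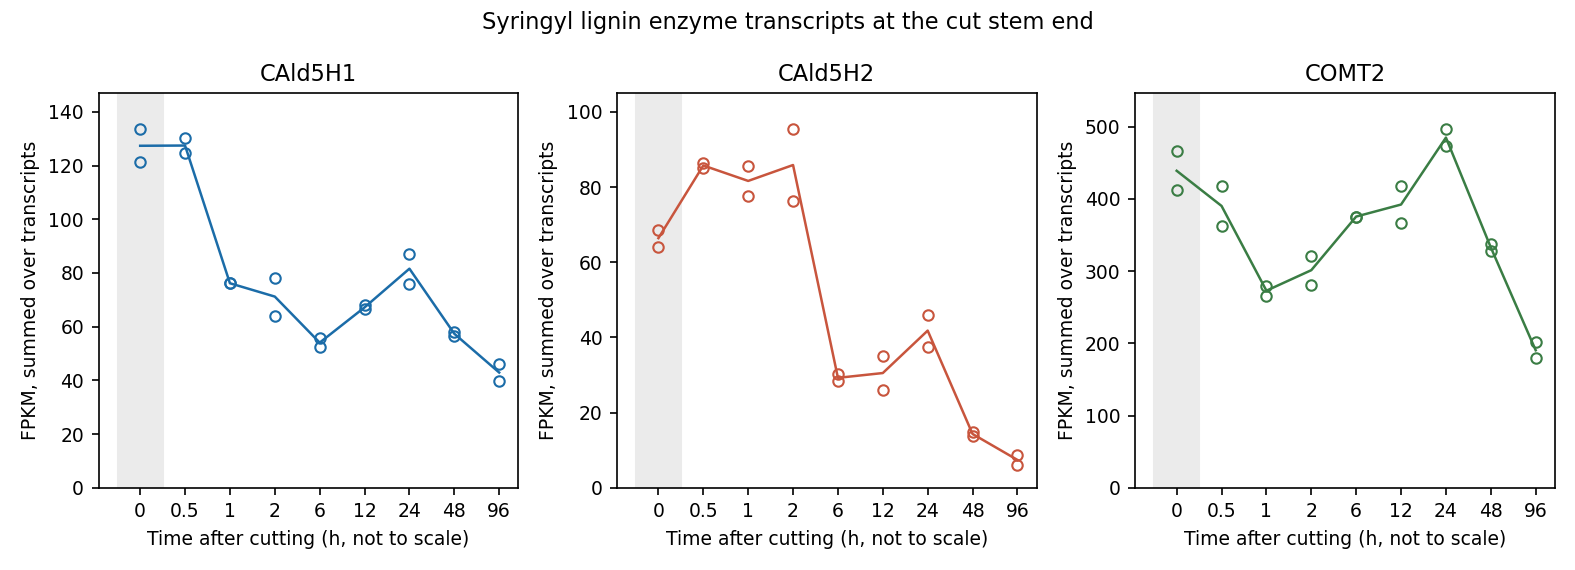
FPKM of CAld5H1, CAld5H2 and COMT2, summed over the listed transcripts, against time after cutting in hours (points evenly spaced, not to scale). Open circles are libraries, lines join the means of 2 libraries, and the grey band marks 0 h. CAld5H1 drops from 127 to 76.2 FPKM between 0.5 and 1 h, CAld5H2 from 85.9 to 29.3 FPKM between 2 and 6 h, and COMT2 peaks at 485 FPKM at 24 h.

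All 3 members differed among the 8 time points after cutting, as did 91.3% of the loci tested. The adjusted p of the F test was 2.66e-07 for CAld5H1, 4.79e-10 for CAld5H2 and 1.02e-06 for COMT2 (limma with Benjamini-Hochberg adjustment over 26765 loci). With 0 h included, 95.8% of loci differed, and the p-values were 4.43e-08, 4.13e-10 and 7.34e-07. Since nearly every locus changes, these calls say little by themselves, and the members are compared interval by interval. Differences below are in log2(FPKM + 1), with limma's standard error and adjusted p.

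The first move came between 0.5 and 1 h. CAld5H1 fell by 0.73 (SE 0.11, adjusted p 1.06e-04) and COMT2 fell by 0.51 (SE 0.11, adjusted p 0.00193), in an interval in which 30.3% of loci were lower and 13.9% higher. CAld5H2 differed by -0.07, with a 95% interval from -0.42 to 0.28, and did not pass the test. The median difference of all loci in this interval was -0.16, and -0.04 after quantile normalization. Between 1 and 2 h no member passed, in an interval in which 36.4% of loci did.

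Between 2 and 6 h the hydroxylase and the methyltransferase moved apart. CAld5H2 fell by 1.51 (SE 0.16, adjusted p 2.80e-06), or 2.86-fold in FPKM + 1. CAld5H1 fell by 0.38 (SE 0.11, adjusted p 0.00896), in an interval in which 18.3% of loci were lower. COMT2 rose by 0.32 (SE 0.11, adjusted p 0.0254), where 34.2% of loci were higher and the median of all loci was 0.15. Without 2 h replicate 2 the difference of CAld5H1 was -0.24 (adjusted p 0.135), and without 6 h replicate 1 it was -0.34 (adjusted p 0.0591). The rise of COMT2 missed the threshold without 2 h replicate 1 (0.22, adjusted p 0.205), without 6 h replicate 1 (0.32, adjusted p 0.0826) and without 6 h replicate 2 (0.32, adjusted p 0.0866).

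From 6 to 24 h no member passed in either interval, although all 6 differences were positive. After quantile normalization that of COMT2 from 6 to 12 h was -0.024. For 6 to 12 h, with 23.9% of loci called, the difference was 0.31 for CAld5H1 (adjusted p 0.0561), 0.05 for CAld5H2 and 0.06 for COMT2. For 12 to 24 h, with 19.4% of loci called, the differences were 0.27, 0.45 and 0.31, with adjusted p of 0.101, 0.0680 and 0.0673. The 95% intervals of these last values were 0.04 to 0.51, 0.10 to 0.80 and 0.07 to 0.55. Without 12 h replicate 1 the difference of CAld5H2 was 0.66 and passed (adjusted p 0.0291). The differences of CAld5H1 from 6 to 12 h and of CAld5H2 and COMT2 from 12 to 24 h also passed without single libraries of other time points, with adjusted p between 0.0440 and 0.0481.

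After 24 h all 3 members fell in both remaining intervals. From 24 to 48 h, where only 2.66% of loci were lower and 2.41% higher, CAld5H2 fell by 1.48 (SE 0.16, adjusted p 9.21e-05), COMT2 fell by 0.54 (SE 0.11, adjusted p 0.00996) and CAld5H1 fell by 0.50 (SE 0.11, adjusted p 0.0158). CAld5H2 kept its call without any 1 of the libraries. COMT2 lost it without any 1 of the 4 libraries compared, with adjusted p of 0.0853 and 0.0521 without 24 h replicate 1 and 2 and 0.0561 and 0.0752 without 48 h replicate 1 and 2. CAld5H1 lost it without 24 h replicate 2 (adjusted p 0.169), 48 h replicate 1 (0.111) or 48 h replicate 2 (0.0779).

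From 48 to 96 h, where 9.78% of loci were lower, CAld5H2 fell by 0.88 (SE 0.16, adjusted p 0.00103), COMT2 fell by 0.80 (SE 0.11, adjusted p 9.78e-05) and CAld5H1 fell by 0.41 (SE 0.11, adjusted p 0.0117). The call of CAld5H1 was lost without 48 h replicate 2 (-0.40, adjusted p 0.0680) and without 96 h replicate 2 (-0.31, adjusted p 0.137).

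**Figure D2:**
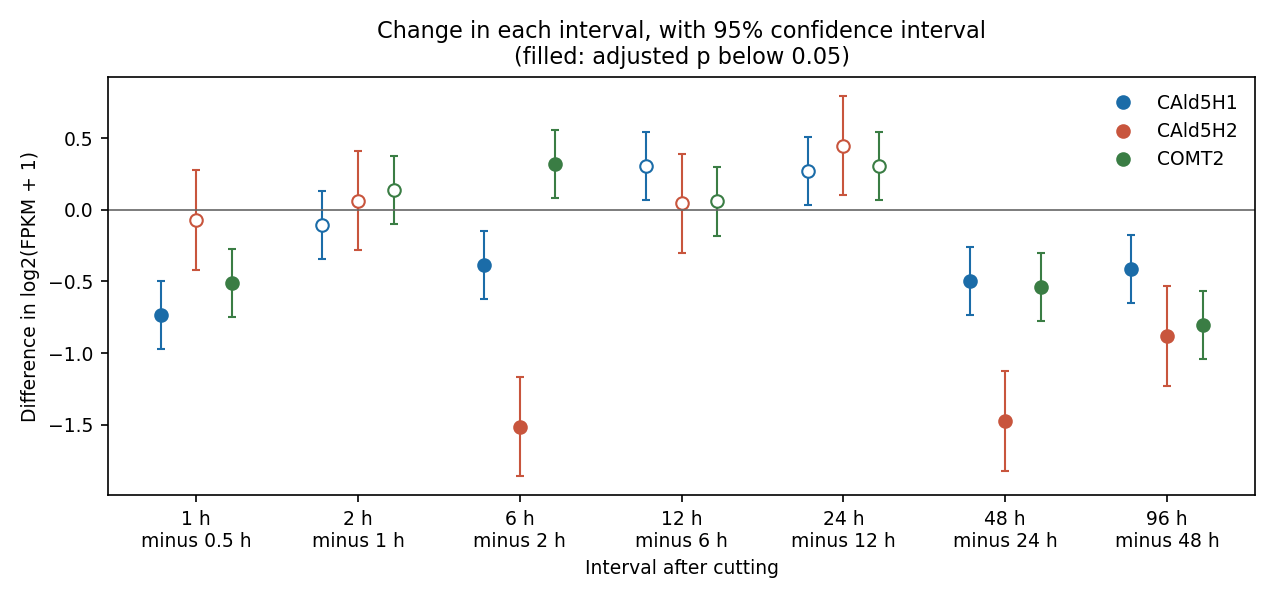
Difference in log2(FPKM + 1) between consecutive time points after cutting for each member, with 95% confidence intervals from limma. Filled circles passed an adjusted p below 0.05. CAld5H2 moves most between 2 and 6 h (-1.51) and between 24 and 48 h (-1.48), and all 3 members lie below 0 in the last 2 intervals.

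The time points after cutting were also joined into an early phase (0.5, 1 and 2 h), a middle phase (6 and 12 h) and a late phase (24, 48 and 96 h). CAld5H2 was lower in the late than in the early phase, with a difference of -2.28 (SE 0.094, adjusted p 1.76e-11), or 4.85-fold in FPKM + 1. For this locus all 6 late libraries lay below all 6 early ones. CAld5H1 was lower too, with a difference of -0.59 (SE 0.064, adjusted p 7.20e-07). Of all loci, 27.2% were lower and 51% higher, and the median difference was 0.23, or 0.07 after quantile normalization. COMT2 differed by -0.02 (adjusted p 0.794), with a 95% interval from -0.16 to 0.12. That mean hides the course described above, since its late libraries range from 179 to 496 FPKM.

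Against the middle phase the same loci split differently. In the middle phase CAld5H2 was already lower than in the early one (-1.47, adjusted p 1.19e-08), as was CAld5H1 (-0.54, adjusted p 7.50e-06), where 24.5% of loci were lower. COMT2 was higher by 0.27 (adjusted p 0.00348), where 45.2% were higher and the median of all loci was 0.17. From the middle to the late phase, where 26.1% were lower, CAld5H2 fell by 0.80 (adjusted p 1.50e-05) and COMT2 fell by 0.29 (adjusted p 0.00320), while CAld5H1 differed by -0.04, with a 95% interval from -0.19 to 0.11.

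The paralogs did not keep their ratio. CAld5H1 exceeded CAld5H2 2.08-fold and 1.77-fold at 0 h, and 1.53-fold and 1.44-fold at 0.5 h. CAld5H2 was the higher of the pair at 1 h, with ratios of 0.981 and 0.889, and at 2 h, with 0.840 and 0.821. The 6 h libraries gave 1.74 and 1.97, the 12 h libraries 1.89 and 2.61, and the 24 h libraries 2.02 and 1.89. The 48 h libraries gave 4.11 and 3.90, and the 96 h libraries 5.29 and 6.47. All 4 libraries of 1 and 2 h lay below 1 and the other 14 above it. From early to late phase the mean log2 ratio went from 0.07 ± 0.40 to 1.84 ± 0.73 (SD, n = 6 each), a 3.41-fold shift (two-sided exact permutation test over libraries, p 0.00216, also after adjustment over 2 ratios, and the smallest that 6 against 6 can give). CAld5H2 made up a mean of 54.6% of the summed CAld5H FPKM at 2 h and 14.6% at 96 h. Libraries of a time point share that time, so this p describes these 12 libraries.

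The balance between the methyltransferase and the hydroxylases shifted in 1 step. The ratio of COMT2 to the summed CAld5H FPKM was 2.36 and 2.17 at 0 h and between 1.64 and 2.00 in the 6 libraries from 0.5 to 2 h. The 6 h libraries had ratios of 4.54 and 4.47, the 12 h libraries 4.12 and 3.90, the 24 h libraries 4.37 and 3.55, the 48 h libraries 4.79 and 4.49, and the 96 h libraries 3.68 and 3.90. All 10 libraries from 6 h on thus lay above all 8 earlier ones. From early to late phase the ratio rose 2.25-fold (two-sided exact permutation test over 6 and 6 libraries, p 0.00216 before and after adjustment over 2 ratios). This is again the smallest p that the test can give. Libraries of a time point share that time, and the phases were set with earlier results known, so the p describes these libraries only. The summed CAld5H level was 213 ± 2.85 FPKM (SD, n = 2) in the 0.5 h libraries, 83.3 ± 0.895 in those of 6 h and 50.4 ± 6.32 in those of 96 h.

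**Figure D3:**
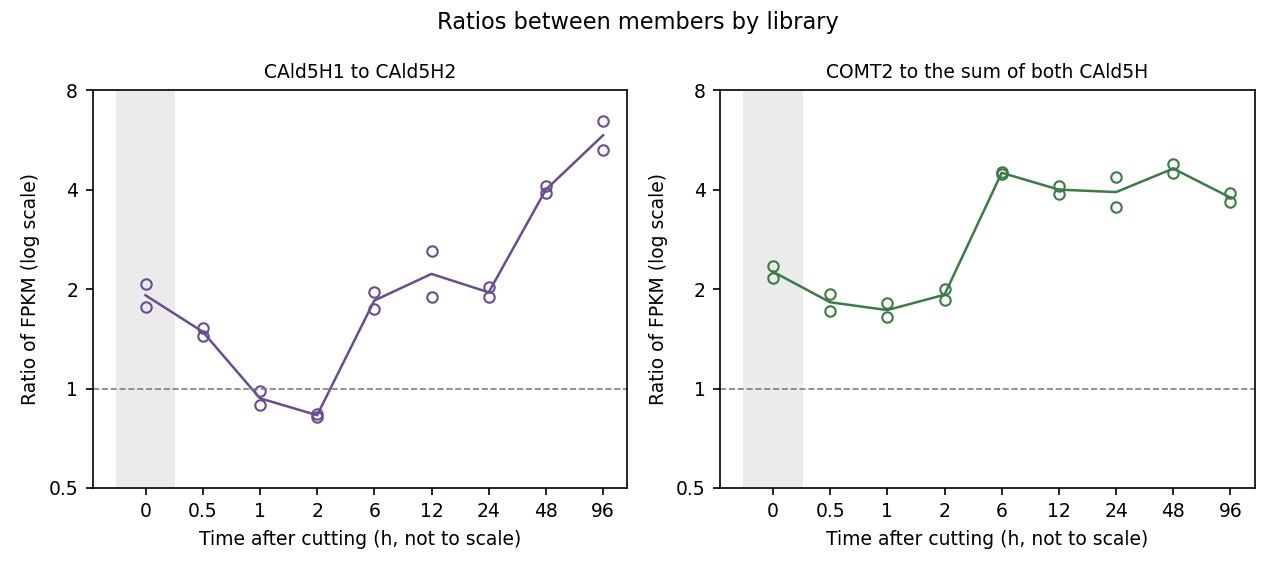
Ratio of FPKM (log scale) of CAld5H1 to CAld5H2 on the left and of COMT2 to the sum of both CAld5H on the right, against time after cutting (not to scale). Open circles are libraries, lines join the means of the log ratios, the dashed line marks equal FPKM and the grey band 0 h. The left ratio dips below 1 at 1 and 2 h and reaches 5.29 and 6.47 at 96 h, and the right ratio steps from at most 2.00 in the early libraries to at least 3.55 in all later ones.

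Comparisons with 0 h carry a difference between the tables. After cutting, all 64 values of the 4 member transcripts came to whole reads (tolerance 0.01 reads), whereas none of the 8 values at 0 h did at the best total found. COMT2 has 2 listed transcripts, of 1596 and 1729 bp by the recovered lengths, and the longer held 0.341% and 0.168% of its FPKM at 0 h but between 33.4% and 36.9% in the 16 later libraries. CAld5H1 (2121 bp) and CAld5H2 (1891 bp) have 1 listed transcript each. The sum over transcripts was used for every locus, and what the difference between tables adds to a comparison with 0 h was not tested.

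**Figure D4:**
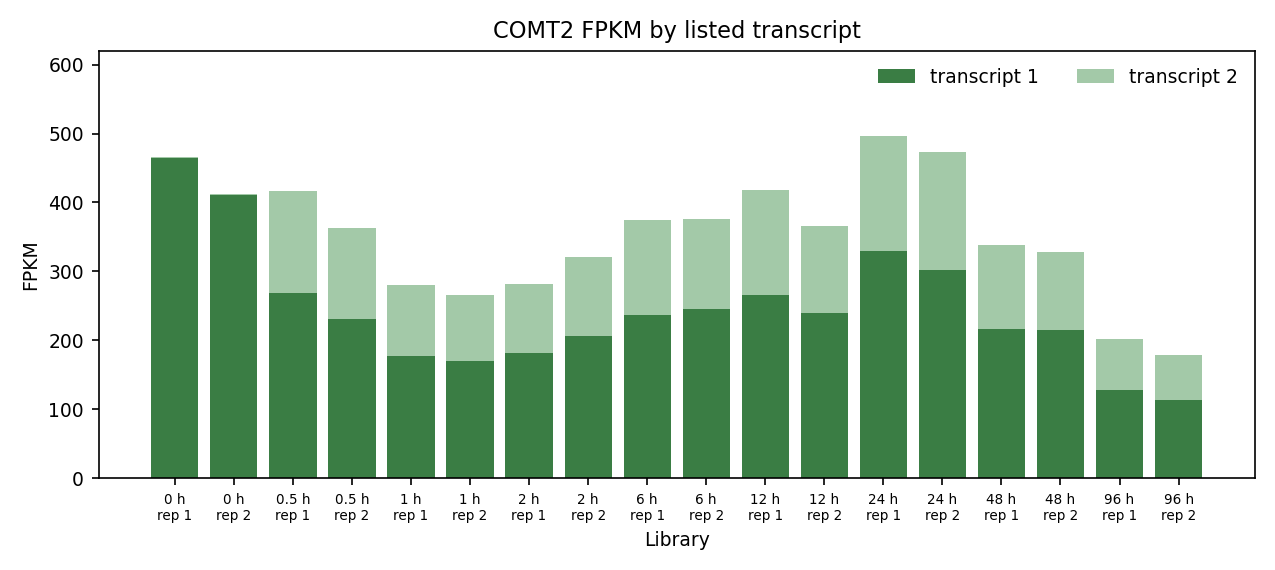
FPKM of the 2 listed COMT2 transcripts, stacked, in each of the 18 libraries. The bar height is the summed level used in the tests, and the lighter part, transcript 2, is at most 0.341% of the bar at 0 h and at least 33.4% of it in every later library.

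With that limit, CAld5H1 was below its 0 h level at every time from 1 h on. Whether COMT2 returned to its own 0 h level depended on the processing. CAld5H1 did not pass at 0.5 h, where 49.7% of loci did, and was lower at the 7 other times, with differences of -0.64 (24 h, adjusted p 1.87e-04) to -1.55 (96 h, adjusted p 2.12e-08). CAld5H2 did not pass at 0.5, 1 or 2 h, with differences of 0.36, 0.29 and 0.36 and adjusted p of 0.0768, 0.125 and 0.0634. The 2 h value passed without 2 h replicate 1 (0.52, adjusted p 0.0330) and without any of the 4 libraries of 12 and 96 h (adjusted p 0.0431 to 0.0436). It was lower at the 5 later times, from -0.66 at 24 h (adjusted p 0.00291) to -3.02 at 96 h (adjusted p 1.14e-09), where 22.5% of loci were lower. COMT2 was lower at 1 h (-0.68, adjusted p 7.38e-05), 2 h (-0.54, adjusted p 5.44e-04), 48 h (-0.40, adjusted p 0.00640) and 96 h (-1.20, adjusted p 3.10e-07). It did not pass at 0.5, 6, 12 or 24 h, where the differences were -0.17, -0.22, -0.16 and 0.15. Without 0 h replicate 1 the call of COMT2 at 48 h was lost (-0.31, adjusted p 0.0636). After quantile normalization COMT2 also passed at 6 h (-0.30) and 12 h (-0.32), and its value at 24 h was -0.022. With the shorter transcript alone in place of the sum, COMT2 was called lower than at 0 h at all 8 times, from -0.46 (24 h) to -1.85 (96 h). Loci called lower than at 0 h made up 39% (1 h), 36.1% (2 h), 27.8% (6 h), 24.3% (12 h), 23.4% (24 h) and 26% (48 h) of those tested.

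The hour at which stems were cut or sampled is not labelled, and no uncut stem of a later time is among the libraries, so changes with the hour of the day cannot be told apart from those after cutting in most intervals. Samples of 24 and 96 h lie whole days after 0 h. Between them all 3 members fell, CAld5H2 by 2.36 (SE 0.16, adjusted p 8.33e-08), COMT2 by 1.35 (SE 0.11, adjusted p 5.91e-07) and CAld5H1 by 0.91 (SE 0.11, adjusted p 2.48e-05). Of all loci, 11.4% were lower and 18.5% higher at 96 h. From 0.5 h to 24 h, where 22% of loci were lower and 32% higher, CAld5H2 fell by 1.03 (adjusted p 9.17e-05) and CAld5H1 by 0.64 (adjusted p 1.96e-04). COMT2 rose by 0.32 (adjusted p 0.0265), but by 0.082 (adjusted p 0.588) after quantile normalization. Its rise also missed the threshold when only the 4 libraries compared were fitted (adjusted p 0.123) and without 0.5 h replicate 2 (0.171), 24 h replicate 1 (0.126) or 24 h replicate 2 (0.0573).

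The other steps of monolignol synthesis were taken as a list of 20 loci, from the phenylalanine ammonia-lyases that open the pathway to the cinnamyl alcohol dehydrogenases that close it. The list rests on gene names published for Populus trichocarpa, which the files do not pair with locus numbers, so it is given by counts. Of the 20 loci 19 are in the tables, and all 19 were tested and differed among the later time points, as did 91.3% of all loci. Between the early and the late phase 6 were higher, 6 were lower and 7 did not pass, against 51% higher and 27.2% lower among all loci. The share of lower loci was thus near that of all loci. The median was 0.03 against 0.23 for all loci, so COMT2 (-0.02) lay near the median of the list, and CAld5H2 (-2.28) lay below all 19, the lowest of which was at -1.21. After quantile normalization 4 were higher and 7 lower, with a median of -0.078 against 0.072. Between 2 and 6 h 3 rose, 4 fell and 12 did not pass, where 34.2% of all loci were higher and 18.3% lower.

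The late fall was shared by most of the pathway. From 24 to 96 h 17 of the 19 loci were lower, none was higher and 2 did not pass, where 11.4% of all loci were lower, with a median of -0.72 against 0.08 for all loci. CAld5H1 (-0.91) lay within the range of the list, which ran from -1.47 to -0.03, as did COMT2 (-1.35), and CAld5H2 (-2.36) lay below it. From 24 to 48 h 4 of 19 were lower and none was higher, against 2.66% of all loci lower, and from 48 to 96 h 11 were lower and none was higher, against 9.78% lower. The summed FPKM of the 19 loci was 2858 and 2963 at 24 h and 1562 and 1716 at 96 h. A locus entered as a paralog of COMT2 moved the other way, from 5.26 and 5.79 FPKM at 24 h to 15.6 and 34.5 at 96 h, a difference of 1.90, with replicates that differ by more than 2-fold at 96 h.

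Cellulose synthase loci of the secondary wall fell with CAld5H2 between phases and from 24 to 48 h. They did not fall as a group from 2 to 6 h or from 48 to 96 h. The tissue was checked with 4 loci listed as the cellulose synthases of secondary walls, which mark xylem that forms such walls, and all 4 were expressed, with a summed 398 and 427 FPKM at 0 h. Their sum was 244 to 451 FPKM in the early libraries, 155 to 275 in the middle and 60.6 to 171 in the late ones. All 4 were lower in the late than in the early phase, with a median of -1.87, where 27.2% of all loci were lower. The lowest was at -2.39, beside -2.28 for CAld5H2. From the early to the middle phase 3 were lower and 1 did not pass (median -0.63), where 24.5% of all loci were lower. From the middle to the late phase all 4 were lower (median -1.22), where 26.1% of all loci were lower. All 4 fell from 24 to 48 h, with a median of -1.26, where 2.66% of all loci were lower. From 24 to 96 h all 4 were lower too, with a median of -1.23, where 11.4% of all loci were lower. From 0.5 to 1 h 3 were lower and 1 did not pass (median -0.53), where 30.3% of all loci were lower. In that interval CAld5H2 did not pass (-0.07), while CAld5H1 and COMT2 fell. From 2 to 6 h 1 rose, 1 fell and 2 did not pass, where 34.2% of all loci were higher and 18.3% lower. The median of the 4 was -0.14, where CAld5H2 fell by 1.51. The 1 that rose no longer passed after quantile normalization. From 48 to 96 h 1 rose and 3 did not pass, where 18.7% of all loci were higher and all 3 members fell. The part that the amount of such xylem has in the levels of the members was not tested.

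Most of the listed wall regulators were lower late than early, and the cambium loci were higher. Of 8 loci listed as NAC and MYB regulators of secondary walls, 5 were lower in the late than in the early phase, 1 was higher and 2 did not pass, where 27.2% of all loci were lower and 51% higher. Their median was -0.64 against 0.23 for all loci. Their summed level was 34.2 to 52.4 FPKM in the early and 13.9 to 30.8 in the late libraries. Some of the 8 were low throughout, with highest time-point means after cutting of 2.58, 2.68, 3.33 and 3.93 FPKM. From 24 to 96 h 2 of the 8 rose and 2 fell, where 18.5% of all loci were higher and 11.4% lower. Their median was -0.06 against 0.08 for all loci. From 48 to 96 h 3 of the 8 rose and none fell, where 18.7% of all loci were higher and 9.78% lower. All 3 members fell in both comparisons. All 4 loci listed as markers of the cambium, the dividing layer that gives rise to xylem, were higher late than early, with a median of 0.75, where 51% of all loci were higher. From 24 to 96 h 2 of the 4 fell and none rose, where 11.4% of all loci were lower and 18.5% higher. The median of the 4 was -0.44 against 0.08 for all loci. Their sum was 31.3 to 76.7 FPKM in the early libraries and higher in all 6 late ones, up to 121, but below the 149.5 and 205 FPKM of the 0 h libraries.

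**Figure D5:**
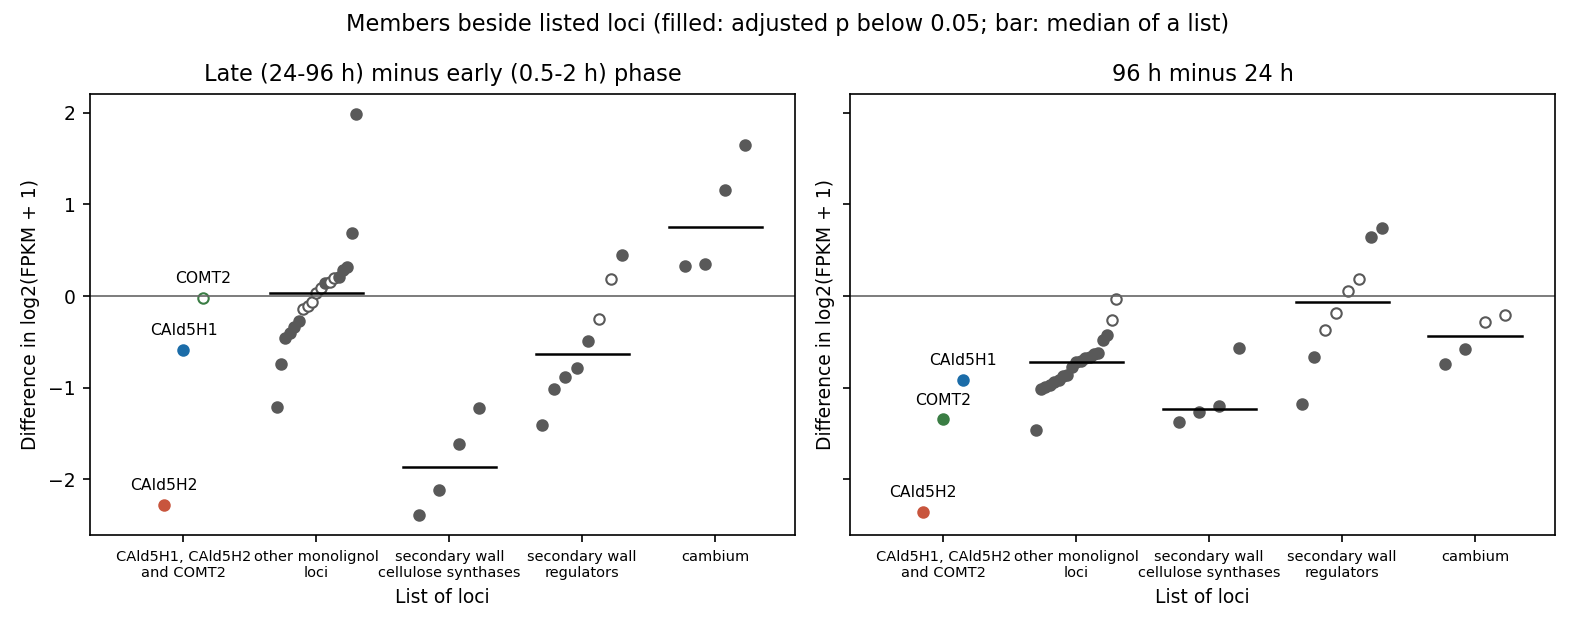
Difference in log2(FPKM + 1) of the members and of the loci of 4 lists, between the late and the early phase on the left and between 96 and 24 h on the right. Each circle is a locus, filled where the adjusted p is below 0.05, and bars mark the median of a list. CAld5H2 lies below all 19 other monolignol loci in both panels, at -2.28 and -2.36, and COMT2 moves from -0.02 on the left to -1.35 on the right.

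The courses of CAld5H1 and CAld5H2 were more alike than either was to that of COMT2. Over the 16 libraries after cutting, Pearson's r of log2(FPKM + 1) was 0.80 between CAld5H1 and CAld5H2, 0.57 between CAld5H1 and COMT2 and 0.42 between CAld5H2 and COMT2. These values describe the courses, since libraries of a time point share it. Among 17428 loci whose time-point means were at least 2-fold apart, CAld5H2 ranked 241 in likeness to CAld5H1, and CAld5H1 ranked 948 in likeness to CAld5H2. COMT2 ranked 2414 in likeness to CAld5H1 and 4422 to CAld5H2. In likeness to COMT2, CAld5H1 ranked 329 and CAld5H2 ranked 1081. The loci given next are the best of all those compared, so that they exceed a single fixed partner says little. The 5 loci most like CAld5H1 had r from 0.93 to 0.97, led by Potri.004G234100 and Potri.003G143200. The 5 most like CAld5H2 had r from 0.96 to 0.97, led by Potri.006G120600, with mean FPKM of 52.2 (2 h), 9.42 (6 h) and 0.186 (96 h), and Potri.009G012100. The 5 most like COMT2 had r from 0.86 to 0.97. They were led by Potri.014G126000, with mean FPKM of 162 (0.5 h), 47.2 (2 h), 239 (24 h) and 20.3 (96 h), and Potri.008G030200, and the fifth was 1 of the 19 monolignol loci. The files do not pair these loci with names.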

How the data were processed

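RNA-seq was analysed in 18 libraries, 2 at each of 9 time points, grouped by the labelled time after cutting. The authors deposited 1 table per library with transcript identifiers and FPKM. The column is headed FPKM in the 0 h tables, and in the others it carries the sample title, so that the unit there follows from the values. Per the submitters' processing notes, Bowtie2 2.2.3 and HISAT2 2.1.0 were among the tools, for steps not stated. Build, annotation and quantification tool: not given in the sources used here. Each table holds 65535 transcripts of 36385 loci and ends within prefix 17, and loci beyond that were not analysed here.

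FPKM were summed per locus. Loci with at least 1 FPKM in at least 2 libraries (26765) were analysed as log2(FPKM + 1), a scale that understates the change of low loci, with limma 3.58.1 in R 4.3.3 (1 mean per time point, all 18 libraries, intensity trend, robust). Tests were two-sided, with Benjamini-Hochberg adjustment over all loci within each comparison and a threshold of 0.05. Phases are equal-weight means of their time points. Ratios were tested by exact permutation with scipy 1.17.1. Among these tests, only the limma comparison of late with early phase was tried on simulated data, and no result is drawn from that trial. A read total was sought for each library that makes low FPKM (0.015 to 0.07) equal to 1 read over a whole length, and then the lengths (60 to 17000 bp) that make the members' FPKM whole reads. Read numbers cover counting error only.

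The members, lists and phases were chosen with earlier results of these data known. Loci were named as the 3 members and the loci most like each by Pearson's r.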

Additional observations from a re-analysis of the deposited data

How the results depend on the processing

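Pseudocount, filter, quantile normalization, replicate block, leading transcript in place of the sum, fits without the 0 h libraries or of the compared libraries only, and leaving out each library were tried. Apart from leaving out a library, 420 of 431 recomputed values kept direction and call. Many of these differences could not move, so the tally says little about them. The filter, the replicate block and the choice of libraries fitted leave a difference as it is, and so does the leading transcript for CAld5H1 and CAld5H2. In those settings only the call could change. After quantile normalization COMT2 against 0 h was called at 6 h (-0.30) and 12 h (-0.32) and was -0.022 at 24 h, COMT2 from 6 to 12 h was -0.024, COMT2 from 0.5 to 24 h was 0.082 and CAld5H1 at 0.5 h against 0 h was -0.12. With the leading transcript COMT2 against 0 h was -0.81 (0.5 h), -0.85 (6 h), -0.79 (12 h) and -0.46 (24 h), all called, which follows from the 0 h tables giving nearly all FPKM to that transcript. With the compared libraries only, COMT2 from 0.5 to 24 h kept 0.32 and lost its call, where fewer samples entered. Labels pair no libraries: same-numbered libraries deviated together (r over 0.1) in 3 of 36 pairs of time points. The replicate block changed no call of a member. Each replicate number occurs once at every time point, so the block could alter only the spread. The differences from early to late phase, -2.28 for CAld5H2, -0.59 for CAld5H1 and -0.02 for COMT2, were therefore bound to stay.

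Leaving out 1 library kept direction and call in 1171 of 1212 values. Many of these differences could not move, so the tally overstates how stable they are. A difference between 2 time points stays the same when the library left out belongs to another time point, and only its call can change. The values that changed call or sign ranged as follows. For CAld5H1 they ranged from -0.066 to 0.071 at 0.5 h against 0 h, -0.24 to 0.039 from 1 to 2 h, -0.53 to -0.24 from 2 to 6 h, 0.27 to 0.35 from 6 to 12 h, -0.59 to -0.40 from 24 to 48 h and -0.52 to -0.31 from 48 to 96 h. For CAld5H2 they ranged from 0.20 to 0.52 at 2 h against 0 h, -0.093 to 0.22 from 1 to 2 h, -0.16 to 0.25 from 6 to 12 h and 0.24 to 0.66 from 12 to 24 h. For COMT2 they ranged from -0.48 to -0.31 at 48 h against 0 h, 0.22 to 0.42 from 2 to 6 h, -0.036 to 0.15 from 6 to 12 h, 0.21 to 0.40 from 12 to 24 h, -0.57 to -0.51 from 24 to 48 h, 0.22 to 0.42 from 0.5 to 24 h and -0.052 to 0.014 from early to late phase. The ratio shifts stayed between 1.60 and 1.96 and between 1.13 and 1.21 on the log2 scale.

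The number of all loci called from 24 to 48 h went from 1356 to between 644 and 778 without 1 of the 4 libraries. From 6 to 12 h it went from 6402 to 3740 in the compared libraries only, to 2754 without the first 6 h library and to 3343 without the second 12 h library. From 12 to 24 h it went from 5191 to 3427 without 12 h replicate 1, and to 3437 or 2800 without the first or second 24 h library. From 48 to 96 h it went from 7617 to 5016 without 48 h replicate 2 and 4446 without 96 h replicate 2, and from 24 to 96 h from 7993 to 5065 without 96 h replicate 2.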
